A study of Mus musculus with 9 samples.

Results

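The antioxidant and NRF2 defence genes described here are 40 mouse genes chosen by symbol for their function, from the 33211 genes of a liver count table. The choice was made with earlier results of these data known. They cover the NRF2 axis, oxidoreductases under its control, the thioredoxin system, glutathione synthesis and recycling, glutathione peroxidases, peroxiredoxins, superoxide dismutases and catalase, the clearance of epoxides, aldehydes and carbonyls, and the metallothioneins. All 40 were found in the table, and 39 had enough counts to be tested. The libraries came from the liver of C57BL/6 mice (male C57BL6/J per the study's methods), which ate a high-fat diet (HFD) from the age of 8 weeks for 7 weeks. The diet had been kept in a freezer at -20 degrees C (HFDfre, 5 libraries) or in a fridge at 4 degrees C (HFDfri, 4 libraries). Both groups ate the HFD, so no library shows the liver on a standard diet. The comparison of HFDfri with HFDfre asks how storage of the diet affects these genes in the liver.

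NRF2 (encoded by Nfe2l2) is a transcription factor that KEAP1 holds in the cytoplasm and hands over for degradation. Electrophiles and oxidants modify KEAP1, and NRF2 then enters the nucleus, pairs with small MAF proteins and binds antioxidant response elements in front of genes for glutathione synthesis, thioredoxin recycling and quinone reduction. The liver relies on these genes because it oxidises fatty acids, clears foreign compounds and holds iron, zinc and copper. Metallothioneins are small cysteine-rich proteins that bind zinc and copper and are induced by metals, glucocorticoids and inflammation.

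The library totals ran from 58614917 to 69353439 counts. The hepatocyte markers (8 genes, among them albumin) summed to between 90183 and 96528 CPM (counts scaled to a common library total) in HFDfre and between 80242 and 107813 CPM in HFDfri, so the markers of the labelled tissue were abundant in every library. Of the 8, 3 were higher in HFDfri at an unadjusted p under 0.05 (37.5%, against 11.4% of all genes) and 1 was lower (12.5%, against 9.79%). None of the 8 passed an adjusted p of 0.05 with edgeR. Among markers of other cells, Mpo and Ly6g of the neutrophil list stayed at 3 counts or fewer in every library. The red blood cell list had 1 gene of 6 past an adjusted p of 0.05 (1.05% of all genes), Alas2, the first enzyme of haem synthesis in erythroid cells. Its log2 fold change was 0.40 ± 0.085 (edgeR adjusted p = 0.0486, a call kept in 8 of 22 alternatives). The 4 haemoglobin genes of the list went the other way, at -0.39 to -0.18, and the list median was -0.21. The list summed to 447 to 614 CPM in HFDfre and 273 to 889.5 CPM in HFDfri. The Kupffer cell, neutrophil, lymphocyte, endothelial, stellate and cholangiocyte lists had none, and the ranges of their summed levels overlapped between the groups. At an unadjusted p under 0.05, the stellate list had 3 of 9 genes lower in HFDfri (33.3%, against 9.79% of all genes) and summed to 126.2 to 193 CPM in HFDfre and 101 to 179 CPM in HFDfri. The endothelial list had 1 of 8 lower and the cholangiocyte list 1 of 5 higher at that threshold. The 7 tested lymphocyte genes all had log2 fold changes below 0 (median -0.72) and none at an unadjusted p under 0.05, with the list at 1.82 to 4.24 CPM in HFDfre and 1.29 to 2.27 CPM in HFDfri. The part of these cells in the results was not tested. A ribosomal RNA-like locus took between 0.466% and 11.1% of the counts of a library.

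Of the 39 tested genes, 29 were lower in HFDfri and 10 were higher. The median of their log2 fold changes was -0.18, against -0.0068 over all 14220 tested genes. None passed an adjusted p of 0.05 with the quasi-likelihood test of edgeR, where 1.05% of all tested genes did. An unadjusted p under 0.05 was reached by 17 of them (21.2% of all genes). Of these, 15 were lower in HFDfri, or 38.5%, against 9.79% of all genes. They were Nfe2l2, Nqo1, Srxn1, Txn1, Glrx, Gclc, Gclm, Gpx4, Sod1, Sod3, Ephx1, Aldh2, Aldh3a2, Aldh1a1 and Cbr1. The other 2, Txnrd1 and Mt2, were higher, against 11.4% of all genes. The groups did not overlap for 8 genes (7.69% of all genes), of which 7 were lower in HFDfri (3.66% of all genes) and 1 was higher (4.02%). DESeq2 gave an adjusted p under 0.05 for 9 of the 15, namely Nfe2l2, Nqo1, Txn1, Gclc, Gclm, Gpx4, Ephx1, Aldh1a1 and Cbr1, and for 7.51% of all genes. All 9 were lower, against 3.50% of all genes. In bulk liver, fewer cells of a type and less RNA per cell cannot be told apart.

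**Figure D1:**
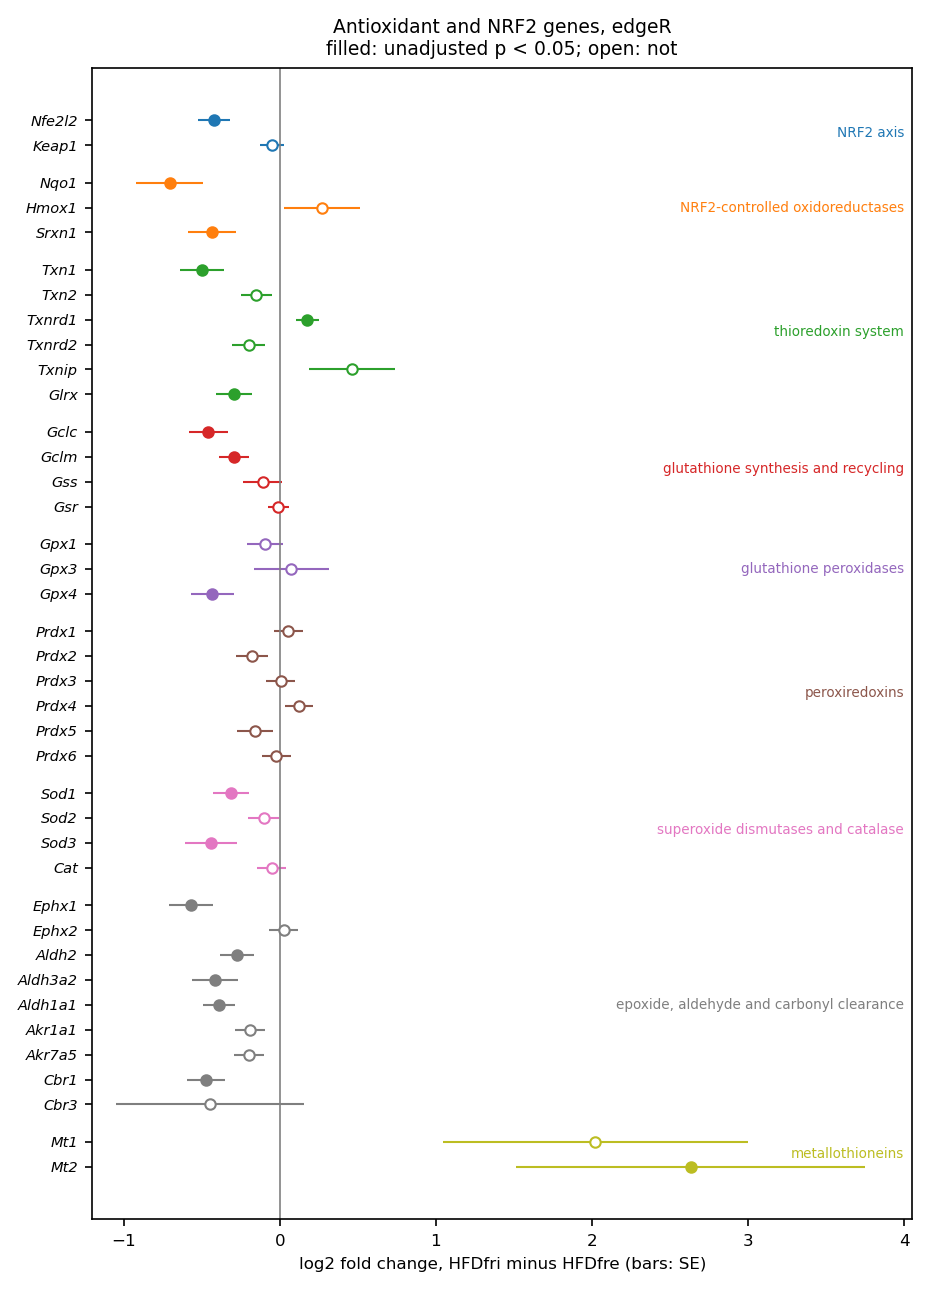
The log2 fold change (HFDfri minus HFDfre, horizontal axis) of each of the 39 tested genes is drawn with its standard error, ordered and coloured by role. Filled points had an unadjusted p under 0.05. Of the 17 filled points, 15 lie below 0, and the metallothioneins lie far to the right with the widest errors.

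Single libraries carried part of these counts. Without HFDfri 1, 5 of the antioxidant genes passed an adjusted p of 0.05 with edgeR (Nfe2l2, Txn1, Sod1, Aldh1a1 and Cbr1), and without HFDfri 2 only Nqo1 did. Over the whole table, 1106 genes passed without HFDfri 1 and 235 without HFDfri 2, against 150 with all libraries. The number of antioxidant genes that were lower with an unadjusted p under 0.05 was 19 without HFDfri 1 (12.9% of all genes) and 11 without HFDfri 2 (9.15%) or without HFDfri 3 (6.60%). It was 10 with scaling by library totals (5.81% of all genes), where Srxn1, Glrx, Gclm, Aldh2 and Aldh3a2 dropped out of the 15. Within the 5 libraries where the ribosomal locus took under 3% (2 HFDfre, 3 HFDfri), the number was 9 (4.87%). There Nqo1, Glrx, Sod1, Sod3, Aldh2 and Aldh3a2 dropped out of the 15. The 15 genes kept their direction in each of the 22 alternative analyses. They were picked by their p in the analysis reported and the alternatives reuse its libraries, so this is a description and no separate support. The median deviation of the tested genes from their mean over libraries ran from -0.051 to 0.18 (log2 CPM) in HFDfre and from -0.21 to -0.016 in HFDfri, so that HFDfre 2 lay below HFDfri 4.

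Short transcripts had lower fold changes than long ones over the whole table. With the tested genes parted into 5 equal classes by exon length, the medians were -0.16, -0.039, 0.0089, 0.047 and 0.080 from class 1 (shortest) to class 5. The antioxidant genes are short as a set, with 14 of 39 in class 1. Their median in that class was -0.13, above that of all genes, and 4 of its genes were lower with an unadjusted p under 0.05. In class 2 the median of the antioxidant genes was -0.053, close to that of all genes, with 2 of 9 such genes, and the 1 gene of class 5 was at -0.10 and was not among them. In class 3 the median was -0.31 with 5 of 9 such genes, and in class 4 it was -0.28 with 4 of 6. After a correction of each library for GC content and length, 14 of the 39 genes were lower with an unadjusted p under 0.05, against 7.42% of all genes. Gpx4 was the gene of the 15 that was no longer among them, and the median of the 39 was -0.16. The short-minus-long difference in log2 level was -0.056 to 0.18 in HFDfre and -0.27 to 0.097 in HFDfri (exact permutation p = 0.0476, adjusted over 4 library measures 0.0952). The mitochondrial share of counts was 11.4% to 19.8% in HFDfre and 8.93% to 13.6% in HFDfri (exact permutation p = 0.0317, adjusted 0.0952). With mitochondrial genes taken out before scaling, 15 of the 39 genes were lower with an unadjusted p under 0.05, against 9.81% of all genes.

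**Figure D2:**
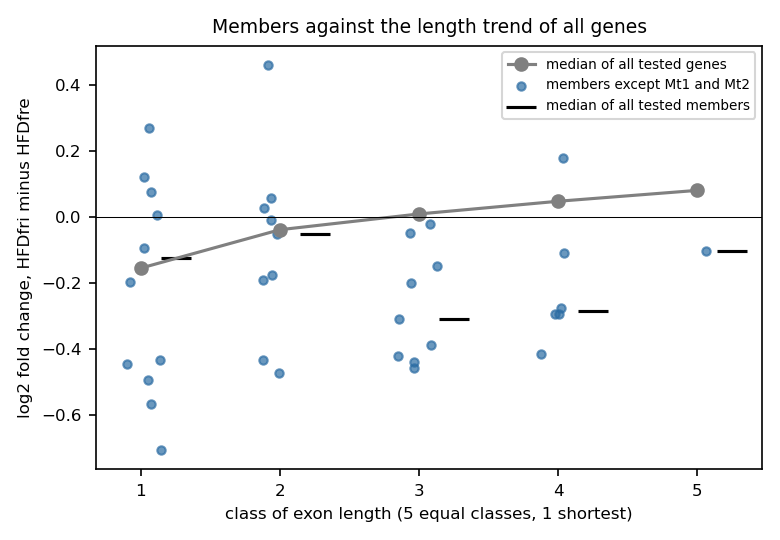
The log2 fold change (vertical axis) of the antioxidant genes is drawn by their class of exon length (horizontal axis, 1 shortest to 5 longest), with the median of all tested genes as a grey line and the median of the antioxidant genes as black bars. Mt1 and Mt2 lie above the axis and enter only the median bar. In classes 3 and 4 the black bars sit at -0.31 and -0.28 while the grey line is above 0.

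Of the NRF2 axis, Nfe2l2 was at lower level in every HFDfri library and Keap1 was not. Nfe2l2 (ENSMUSG00000015839, chromosome 2, 75675513 to 75704641, minus strand, GRCm38) was at 64.6, 57.5, 81.7, 60.5 and 69.3 CPM in HFDfre 1 to 5 and at 50.7, 49.7, 49.7 and 49.3 CPM in HFDfri 1 to 4. Every HFDfri library lay below every HFDfre library, and the 4 HFDfri libraries spanned only 1.03-fold against 1.42-fold in HFDfre. The mean was 66.7 ± 9.46 CPM in HFDfre (n = 5) against 49.9 ± 0.600 CPM in HFDfri (n = 4), each with its SD, a log2 fold change of -0.42 ± 0.10 (SE, edgeR adjusted p = 0.0701), and DESeq2 gave an adjusted p of 0.00880. Keap1, the repressor of NRF2, was at 32.3 to 35.8 CPM in HFDfre and 30.6 to 35.6 CPM in HFDfri and overlapped between the groups. Its log2 fold change was -0.05 ± 0.079 (SE, edgeR adjusted p = 0.764), and it turned to 0.0094 with scaling by library totals.

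The promoters of 33 of the 40 genes were present in the RefSeq table of GRCm38.p6, which gives 250 bases before and 50 after each start site. Gsr, Hmox1, Sod3, Aldh2, Gclc, Ephx2 and Prdx6 were the others. The core of the antioxidant response element, TGACNNNGC, was searched on both strands and found for 8 of the 33 (24.2%), against 14.0% of the 27025 genes in that table. These were Nfe2l2, Srxn1, Gclm, Prdx1, Mt2, Ggt1, Txnrd1 and Sod1. Of these, 4 are printed because they set genes at lower level in HFDfri with a core (Nfe2l2, Gclm and Sod1) beside a peroxiredoxin with a core and no such difference (Prdx1). Among those not printed here, Srxn1 was lower, while Txnrd1 and Mt2 were higher in HFDfri, each at an unadjusted p under 0.05. Ggt1 was not tested. Genes with a core thus went in both directions. They run 5′ to 3′ on the gene's strand from 250 bases before the start to 30 after it, with the core in capitals. In Gclm, Sod1 and Prdx1 the core is on the opposite strand, so the capitals show its reverse complement. For Nfe2l2 the RefSeq start lies outside the GENCODE gene. In Gclm a metal response element core shares bases with it. The windows are chr2:75704634-75704913 on the minus strand and chr3:122245307-122245586, chr16:90220512-90220791 and chr4:116685349-116685628 on the plus strand.
Nfe2l2: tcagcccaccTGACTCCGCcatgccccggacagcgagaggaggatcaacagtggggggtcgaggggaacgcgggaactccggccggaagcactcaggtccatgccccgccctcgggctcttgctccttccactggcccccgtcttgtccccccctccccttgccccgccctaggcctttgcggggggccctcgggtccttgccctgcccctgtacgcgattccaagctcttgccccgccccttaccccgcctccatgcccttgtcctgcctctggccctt
Gclm: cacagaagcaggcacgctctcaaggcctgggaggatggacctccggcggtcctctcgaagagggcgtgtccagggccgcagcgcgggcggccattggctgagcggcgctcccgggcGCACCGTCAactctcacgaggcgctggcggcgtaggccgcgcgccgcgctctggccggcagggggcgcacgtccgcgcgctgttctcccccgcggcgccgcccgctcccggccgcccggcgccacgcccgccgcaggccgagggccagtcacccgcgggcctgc
Sod1: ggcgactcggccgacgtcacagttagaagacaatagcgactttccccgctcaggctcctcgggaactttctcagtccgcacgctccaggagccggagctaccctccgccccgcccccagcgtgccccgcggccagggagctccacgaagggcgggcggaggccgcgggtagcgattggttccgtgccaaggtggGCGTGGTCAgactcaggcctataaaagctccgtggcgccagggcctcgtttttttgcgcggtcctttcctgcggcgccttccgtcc
Prdx1: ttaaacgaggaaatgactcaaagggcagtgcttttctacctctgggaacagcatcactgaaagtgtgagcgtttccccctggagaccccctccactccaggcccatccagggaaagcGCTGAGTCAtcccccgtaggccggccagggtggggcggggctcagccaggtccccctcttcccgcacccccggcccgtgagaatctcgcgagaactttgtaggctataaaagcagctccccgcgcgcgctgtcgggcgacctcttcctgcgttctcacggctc

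The oxidoreductases under NRF2 control were split. Nqo1, a quinone reductase widely used as a readout of NRF2, was at 5.06, 6.14, 6.15, 7.61 and 6.21 CPM in HFDfre 1 to 5 and at 2.67, 5.82, 3.50 and 3.27 CPM in HFDfri 1 to 4. HFDfri 2 reached the HFDfre range, while the other HFDfri libraries lay below it. This gave a log2 fold change of -0.71 ± 0.22 (SE, edgeR adjusted p = 0.110), which was -0.98 without HFDfri 2, where it passed the adjusted threshold. Srxn1 (sulfiredoxin), which repairs overoxidised peroxiredoxins, was at 22.5, 22.3, 34.4, 31.6 and 33.6 CPM in HFDfre 1 to 5 and at 20.4, 23.5, 17.9 and 23.6 CPM in HFDfri 1 to 4. HFDfre 1 and HFDfre 2 lay among the HFDfri libraries and the other HFDfre libraries lay above them, for a log2 fold change of -0.43 ± 0.16 (SE, edgeR adjusted p = 0.149). Hmox1, the inducible haem oxygenase, was at 4.98 to 8.27 CPM in HFDfre and 5.52 to 12.8 CPM in HFDfri, with its highest level in HFDfri 4. Its log2 fold change was 0.27 ± 0.24 (SE, edgeR adjusted p = 0.565), and leaving out HFDfri 4 gave -0.014.

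In the thioredoxin system, the carrier and its cytosolic reductase differed in opposite directions. Txn1, the cytosolic thioredoxin that reduces protein disulfides, was at 231, 181, 246, 188 and 243 CPM in HFDfre 1 to 5 and at 194, 135, 132 and 155 CPM in HFDfri 1 to 4. HFDfri 1 lay within the HFDfre range and the other HFDfri libraries lay below it. The mean was 218 ± 31.1 CPM in HFDfre (n = 5) against 154 ± 28.5 CPM in HFDfri (n = 4), each with its SD, with a log2 fold change of -0.50 ± 0.14 (SE, edgeR adjusted p = 0.0951) and a DESeq2 adjusted p of 0.0173. Txnrd1, the cytosolic reductase that recycles thioredoxin with NADPH, was at 78.9, 76.3, 76.4, 78.6 and 82.2 CPM in HFDfre 1 to 5 and at 90.6, 85.3, 88.3 and 90.9 CPM in HFDfri 1 to 4. All HFDfri libraries lay above all HFDfre libraries by a small margin, with a log2 fold change of 0.18 ± 0.072 (SE, edgeR adjusted p = 0.189). After the correction for GC content and length it was 0.13 (edgeR unadjusted p = 0.144). Glrx (glutaredoxin), which removes glutathione from proteins, was at 42.7, 42.5, 42.8, 57.2 and 43.3 CPM in HFDfre 1 to 5 and at 35.5, 35.9, 33.7 and 44.0 CPM in HFDfri 1 to 4. HFDfre 4 stood apart at the top, and HFDfri 4 lay above the other HFDfre libraries, with a log2 fold change of -0.29 ± 0.12 (SE, edgeR adjusted p = 0.182) between the groups.

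The mitochondrial pair had no unadjusted p under 0.05. Txn2, mitochondrial thioredoxin, was at 135 to 159 CPM in HFDfre and 117 to 154 CPM in HFDfri and had a log2 fold change of -0.15 ± 0.10 (SE, edgeR adjusted p = 0.407). Txnrd2, its reductase, was at 22.0 to 28.3 CPM in HFDfre and 17.8 to 22.9 CPM in HFDfri with -0.20 ± 0.11 (SE, edgeR adjusted p = 0.314). Txnip, the thioredoxin inhibitor that responds to glucose, was at 39.4 to 98.8 CPM in HFDfre and 57.2 to 117 CPM in HFDfri. Its highest levels were in HFDfri 1, HFDfri 3 and HFDfre 4, and the log2 fold change was 0.46 ± 0.28 (SE, edgeR adjusted p = 0.367). The glucose- and ChREBP-responsive list summed to 1179 to 1733 CPM in HFDfre and 1196 to 1761 CPM in HFDfri, with 0 of its 7 genes at an unadjusted p under 0.05.

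**Figure D3:**
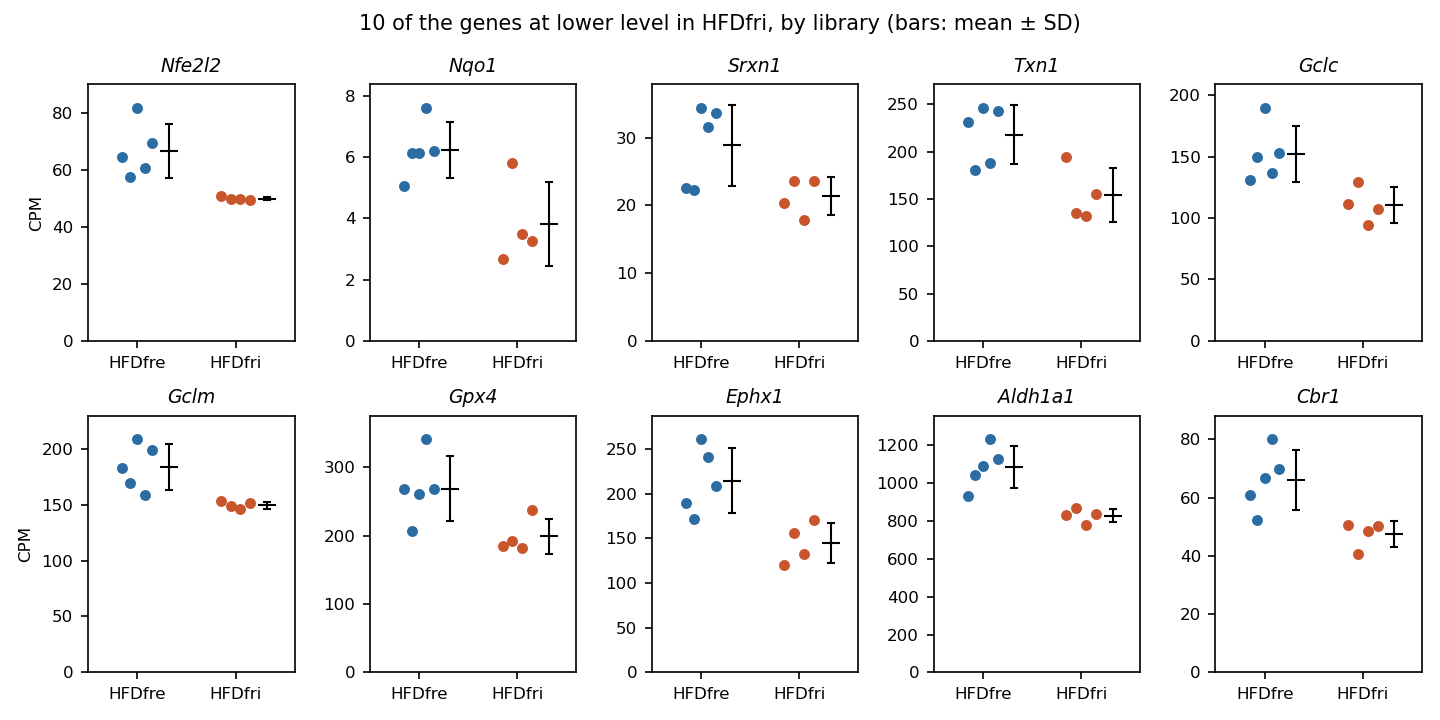
Level (CPM, vertical axis from 0) in each library of 10 of the 15 genes at lower level in HFDfri, with HFDfre in blue, HFDfri in red and the mean and SD as a black bar. Drawn are the 9 genes with a DESeq2 adjusted p under 0.05, and Srxn1. Glrx, Sod1, Sod3, Aldh2 and Aldh3a2 are not drawn. The 4 HFDfri points of Nfe2l2 lie close together between 49.3 and 50.7 CPM, below all HFDfre points.

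Both subunits of the first enzyme of glutathione synthesis were at lower level in HFDfri. Gclc is the catalytic subunit and Gclm the modifier subunit of glutamate-cysteine ligase, which sets the rate of glutathione synthesis. Gclc was at 131, 149.5, 189.7, 137 and 153 CPM in HFDfre 1 to 5 and at 111, 129, 94.4 and 108 CPM in HFDfri 1 to 4. Gclm was at 183, 169, 208, 159 and 199 CPM in HFDfre 1 to 5 and at 153, 149, 146 and 151 CPM in HFDfri 1 to 4. In both genes every HFDfri library lay below every HFDfre library. The log2 fold change of Gclc was -0.46 ± 0.13 (SE, edgeR adjusted p = 0.0886), and DESeq2 gave an adjusted p of 0.0145. For Gclm it was -0.29 ± 0.10 (SE, edgeR adjusted p = 0.122), with an adjusted p of 0.0455 by DESeq2. The second enzyme, glutathione synthetase (Gss), was at 56.5 to 66.3 CPM in HFDfre and 46.6 to 73.4 CPM in HFDfri with a log2 fold change of -0.11 ± 0.12 (SE, edgeR adjusted p = 0.650), and HFDfri 1 was its highest library. Glutathione reductase (Gsr), which restores reduced glutathione with NADPH, was almost level at 40.4 to 42.4 CPM in HFDfre and 39.4 to 42.0 CPM in HFDfri, with a log2 fold change of -0.008 ± 0.07 (SE, edgeR adjusted p = 0.964) that took either sign across the alternatives. Ggt1, which breaks down glutathione outside the cell, had a mean of 0.0237 CPM in HFDfre and 0.0138 CPM in HFDfri and was not tested.

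Among glutathione peroxidases the phospholipid form differed most. Gpx4, which reduces lipid hydroperoxides in membranes, was at 268, 206, 261, 341 and 268 CPM in HFDfre 1 to 5 and at 185, 192, 182 and 237 CPM in HFDfri 1 to 4. HFDfri 4 and HFDfre 2 were the libraries in the range shared by the groups. The mean was 269 ± 47.9 CPM in HFDfre (n = 5) against 199 ± 25.6 CPM in HFDfri (n = 4), each with its SD, with a log2 fold change of -0.43 ± 0.14 (SE, edgeR adjusted p = 0.118) and a DESeq2 adjusted p of 0.0393. After the correction for GC content and length the log2 fold change was -0.21. Gpx1, the main cytosolic form and the most abundant per length in its family (810 CPM per kilobase of exon, mean of all libraries), was at 1203, 1143, 1058, 1467 and 1133 CPM in HFDfre 1 to 5 and at 1039, 1049, 1192 and 1217 CPM in HFDfri 1 to 4. The groups overlapped, and HFDfre 4 was the highest library. Its log2 fold change was -0.10 ± 0.12 (SE, edgeR adjusted p = 0.679), and it was 0.10 after the correction for GC content and length. Gpx3, the secreted form, was at 2.22 to 5.47 CPM in HFDfre and 3.30 to 5.45 CPM in HFDfri with 0.075 ± 0.24 (SE, edgeR adjusted p = 0.893) on the log2 scale.

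The 6 peroxiredoxins, enzymes that remove hydrogen peroxide through a reactive cysteine, showed no gene at an unadjusted p under 0.05. Prdx1, the cytosolic member with the highest level per length (201 CPM per kilobase), was at 536, 587, 602, 623 and 658 CPM in HFDfre 1 to 5 and at 621, 628, 594 and 657 CPM in HFDfri 1 to 4. The groups covered much the same range, and the log2 fold change was 0.056 ± 0.091 (SE, edgeR adjusted p = 0.768). The others had log2 fold changes from -0.18 (Prdx2) to 0.12 (Prdx4). Prdx2 was at 87.6 to 111 CPM in HFDfre and 81.2 to 101 CPM in HFDfri, and Prdx5, which is found in mitochondria and peroxisomes, was at 193 to 249 CPM in HFDfre and 170.2 to 239 CPM in HFDfri. Prdx3 of the mitochondria was at 71.2 to 93.3 CPM in HFDfre and 79.3 to 86.4 CPM in HFDfri, and Prdx4 of the endoplasmic reticulum was at 55.7 to 64.9 CPM in HFDfre and 60.7 to 75.3 CPM in HFDfri. Prdx6, which uses glutathione, was at 367 to 426 CPM in HFDfre and 339 to 418 CPM in HFDfri. The log2 fold change was 0.0053 ± 0.094 for Prdx3, -0.16 ± 0.12 for Prdx5 and -0.021 ± 0.093 for Prdx6, and those of Prdx1, Prdx3 and Prdx6 took either sign across the alternatives. Exons of Prdx2 overlap Junb and Rnaseh2a, and exons of Prdx5 overlap Trmt112, all on the opposite strand, and the use of strand in counting is not stated.

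Superoxide dismutases turn superoxide into hydrogen peroxide, which catalase then splits. Sod1, the cytosolic enzyme, was at 889, 684, 831, 778 and 858 CPM in HFDfre 1 to 5 and at 758, 597, 582 and 669.6 CPM in HFDfri 1 to 4. HFDfri 1 lay inside the HFDfre range, as HFDfre 2 did inside the HFDfri range. Between the groups the log2 fold change was -0.31 ± 0.11 (SE, edgeR adjusted p = 0.159). Sod3, the extracellular enzyme, was at 24.8, 20.1, 24.6, 18.7 and 15.6 CPM in HFDfre 1 to 5 and at 14.5, 12.4, 14.6 and 19.7 CPM in HFDfri 1 to 4. HFDfri 4 lay above HFDfre 4 and HFDfre 5, so the groups overlapped, and the log2 fold change was -0.44 ± 0.16 (SE, edgeR adjusted p = 0.164). Sod2, the mitochondrial enzyme, was at 138 to 173 CPM in HFDfre and 127 to 154 CPM in HFDfri with -0.10 ± 0.10 (SE, edgeR adjusted p = 0.581). Cat (catalase), which works in peroxisomes, had the highest level per length of the 40 genes (922 CPM per kilobase). It was at 2603, 2446, 2442, 2362 and 2387 CPM in HFDfre 1 to 5 and at 2454, 2412, 2239 and 2337 CPM in HFDfri 1 to 4. The groups overlapped, and the log2 fold change of -0.053 ± 0.092 (SE, edgeR adjusted p = 0.785) turned to 0.0071 with scaling by library totals.

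The enzymes that clear epoxides, aldehydes and carbonyls gave 8 of 9 genes at lower level in HFDfri, 5 of them with an unadjusted p under 0.05 (55.6%, against 9.79% of all genes) and 4 without overlap between the groups (44.4%, against 3.66%). Ephx1, microsomal epoxide hydrolase, was at 189.9, 172, 261, 241 and 208 CPM in HFDfre 1 to 5 and at 119.7, 156, 133 and 170.5 CPM in HFDfri 1 to 4. Every HFDfri library lay below every HFDfre library. The mean was 214 ± 36.3 CPM in HFDfre (n = 5) against 145 ± 22.8 CPM in HFDfri (n = 4), each with its SD, with a log2 fold change of -0.57 ± 0.14 (SE, edgeR adjusted p = 0.0741) and a DESeq2 adjusted p of 0.00544. Ephx2, the soluble hydrolase that acts on fatty acid epoxides, had the highest level per length in this group (327 CPM per kilobase). It was at 843, 781, 772, 783 and 851 CPM in HFDfre 1 to 5 and at 767, 805, 793 and 916 CPM in HFDfri 1 to 4. Here the groups overlapped, and the log2 fold change was 0.026 ± 0.092 (SE, edgeR adjusted p = 0.905).

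Aldh1a1, which oxidises retinal and lipid aldehydes in the cytosol, was at 928, 1041, 1091, 1229.8 and 1126 CPM in HFDfre 1 to 5 and at 828, 868, 779 and 835 CPM in HFDfri 1 to 4. No library of one group entered the range of the other. Aldh1a1 had a log2 fold change of -0.39 ± 0.10 (SE, edgeR adjusted p = 0.0811), with an adjusted p of 0.00552 by DESeq2. Aldh2, the mitochondrial enzyme for acetaldehyde, was at 1804, 1663, 1671, 2163 and 1699 CPM in HFDfre 1 to 5 and at 1566, 1425, 1425 and 1534 CPM in HFDfri 1 to 4. The groups did not overlap, and HFDfre 4 was far above the rest of its group, and the log2 fold change was -0.28 ± 0.11 (SE, edgeR adjusted p = 0.180). Aldh3a2, the fatty aldehyde dehydrogenase, was at 375, 377, 431, 547 and 409 CPM in HFDfre 1 to 5 and at 249, 360.5, 298 and 375 CPM in HFDfri 1 to 4. HFDfri 4 lay just above HFDfre 1, which was the only overlap, and the log2 fold change was -0.42 ± 0.15 (SE, edgeR adjusted p = 0.148).

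Cbr1, a carbonyl reductase that uses NADPH, was at 61.0, 52.4, 66.6, 80.0 and 69.9 CPM in HFDfre 1 to 5 and at 50.6, 40.7, 48.5 and 50.2 CPM in HFDfri 1 to 4. Each HFDfri library was below the lowest HFDfre library. The log2 fold change was -0.47 ± 0.12 (SE, edgeR adjusted p = 0.0775), and DESeq2 gave an adjusted p of 0.0127. The aldo-keto reductase Akr1a1 was at 259 to 336 CPM in HFDfre and 249 to 275 CPM in HFDfri, with a log2 fold change of -0.19 ± 0.094 (SE, edgeR adjusted p = 0.272). Akr7a5, of the same superfamily, was at 90.7 to 120.0 CPM in HFDfre and 88.7 to 96.5 CPM in HFDfri, with a log2 fold change of -0.20 ± 0.10 (SE, edgeR adjusted p = 0.266) that turned to 0.073 after the correction for GC content and length. Cbr3 was near the limit of detection, at 0.0623 to 0.421 CPM in HFDfre and 0.0815 to 0.280 CPM in HFDfri, with a log2 fold change of -0.44 ± 0.60 (SE, edgeR adjusted p = 0.717). Several of these enzymes belong to families with close copies, such as Aldh1a1 with Aldh1a7, and how reads were shared between copies is not stated.

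Markers of hepatocyte position in the lobule were read beside these genes. All 9 genes of the pericentral list had log2 fold changes below 0, 3 of them with an unadjusted p under 0.05 (33.3%, against 9.79% of all genes), and with overlap between the groups the list summed to 9173 to 10914 CPM in HFDfre and 8414 to 9286 CPM in HFDfri. The periportal list had 5 of 8 log2 fold changes above 0, 3 with an unadjusted p under 0.05 (37.5%, against 11.4% of all genes), and summed to 3977 to 4211 CPM in HFDfre and 3077 to 4891 CPM in HFDfri. No gene of either list was at 3 counts or fewer in every library. The part of this in the levels of the antioxidant genes was not tested.

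**Figure D4:**
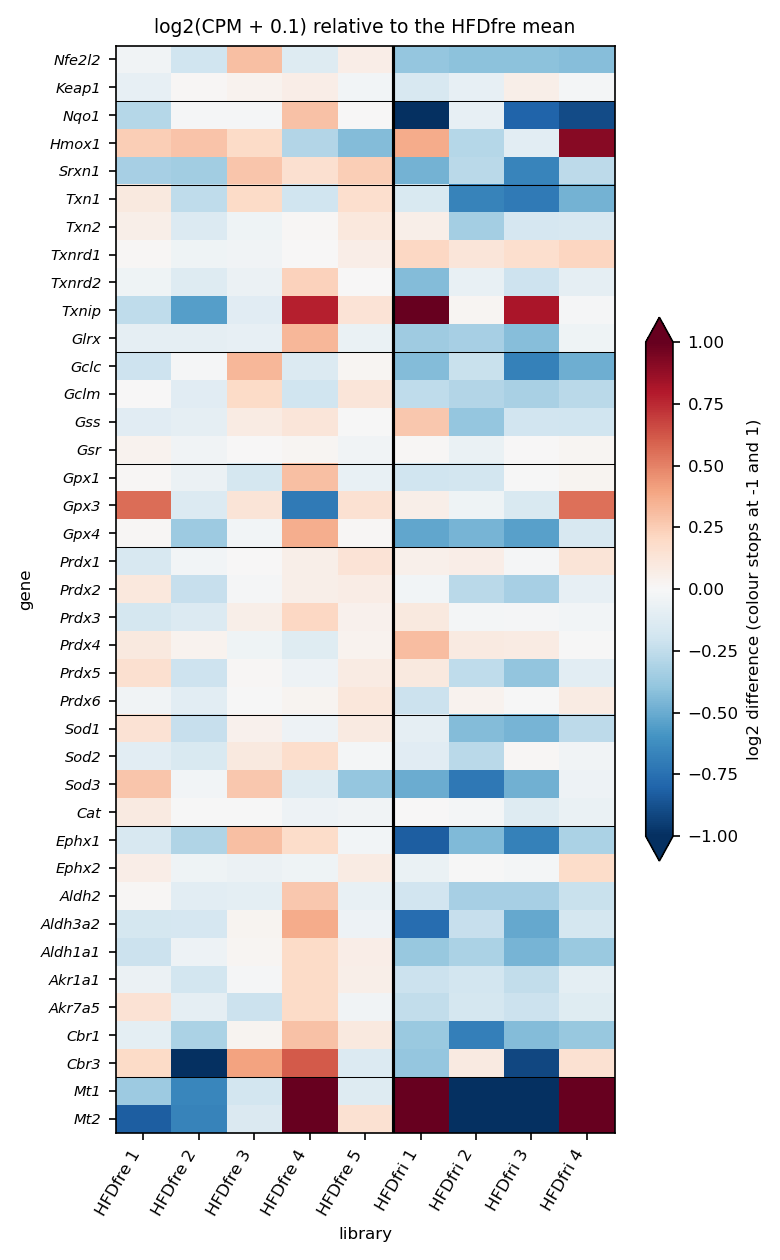
Each row is a tested gene and each column a library, coloured by log2(CPM + 0.1) relative to the mean of the HFDfre libraries, with colours ending at -1 and 1. Black lines part the role groups and the diets. Blue prevails to the right of the vertical line for the 15 genes at lower level, and both metallothioneins go from deep red to deep blue between HFDfri libraries.

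In HFDfri the metallothioneins varied more than any other tested members. In HFDfre, Cbr3, near the limit of detection, spanned 6.76-fold, more than either of them. Mt1 (ENSMUSG00000031765, chromosome 8, 94179082 to 94180327, plus strand) was at 55.6, 45.6, 63.3, 179.9 and 65.6 CPM in HFDfre 1 to 5 and at 1109, 18.9, 17.0 and 188 CPM in HFDfri 1 to 4. HFDfri 1 was far above every other library, HFDfri 4 and HFDfre 4 were alike, and HFDfri 2 and HFDfri 3 were the lowest of the 9. The spread in HFDfri was 65.1-fold and in HFDfre 3.94-fold. The log2 fold change was 2.02 ± 0.98 (SE, edgeR adjusted p = 0.260), and leaving out HFDfri 1 gave -0.14. Mt2 was at 15.6, 17.4, 25.1, 77.6 and 30.8 CPM in HFDfre 1 to 5 and at 694, 8.46, 3.56 and 121 CPM in HFDfri 1 to 4. The order of the libraries was much the same, with HFDfri 1 on top and HFDfri 3 at the bottom, so both ends of the range were HFDfri libraries. Its log2 fold change was 2.63 ± 1.12 (SE, edgeR adjusted p = 0.208), and leaving out HFDfri 1 gave 0.41. An antisense gene covers 73.5% of the exon bases of Mt2.

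The acute phase list, genes the liver turns on in inflammation, was highest in HFDfri 1 and HFDfri 4, while HFDfre 4, whose Mt1 level was like that of HFDfri 4, lay within the HFDfre range. It summed to 23240 CPM in HFDfri 1 and 13935 CPM in HFDfri 4, against 10709 CPM in HFDfre 4, 9515 to 11331 CPM over all HFDfre libraries, and 10219 and 10364 CPM in HFDfri 3 and HFDfri 2. Its 12 genes had 5 with an unadjusted p under 0.05, all higher in HFDfri (41.7%, against 11.4% of all genes). Saa1 (serum amyloid A) reached 586 CPM in HFDfri 1 and 267 CPM in HFDfri 4, against 22.5 to 70.2 CPM in HFDfre. The glucocorticoid-responsive list summed to 778 CPM in HFDfri 1 and 1105 to 1311 CPM in the other HFDfri libraries. In HFDfre it was highest in HFDfre 4 at 1096 CPM, against 715 to 971 CPM in the others. The library with the most Mt1 had the lowest sum of its group in HFDfri and the highest in HFDfre. The part of inflammation or glucocorticoids in the metallothionein levels was not tested.

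**Figure D5:**
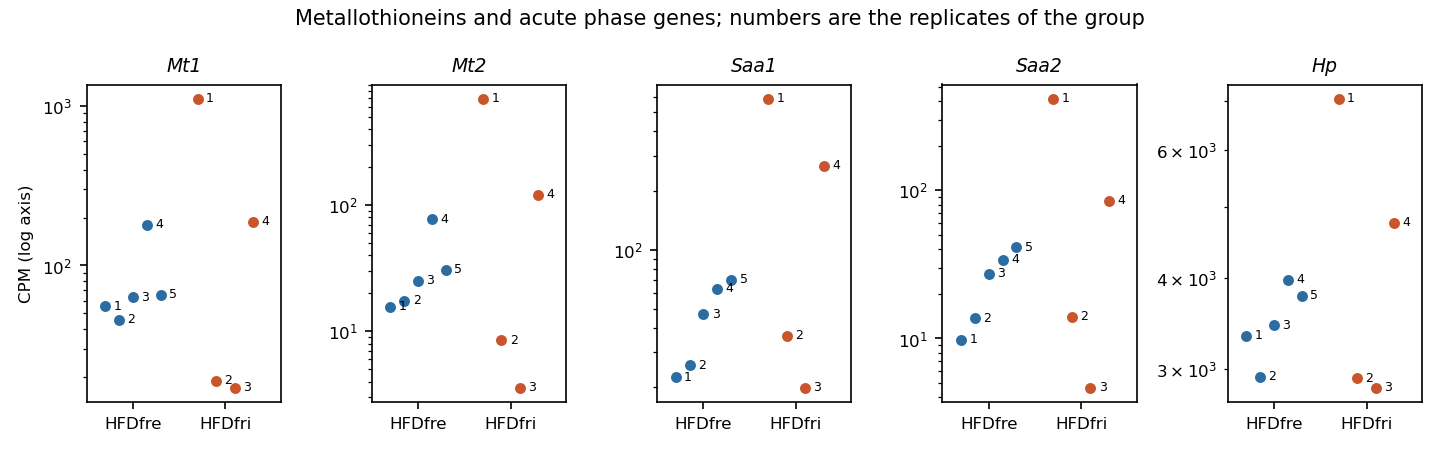
Level (CPM, logarithmic vertical axis with its own range in each panel) of Mt1, Mt2 and the acute phase genes Saa1, Saa2 and Hp in each library, with HFDfre in blue and HFDfri in red and the replicate number beside each point. HFDfri 1 is the highest point and HFDfri 3 the lowest in every panel, with Mt1 at 1109 and 17.0 CPM.

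The promoters of both metallothioneins are printed because they hold matches to the core of the metal response element, to which the zinc sensor MTF1 binds. This core was searched as TGCACNC or TGCGCNC on both strands, and 11 of the 33 genes (33.3%) held a match, against 28.2% of all genes in the promoter table. Mt1 had 3 matches and Mt2 had 4, shown in capitals, those on the opposite strand as their reverse complement. Mt2 also holds an antioxidant response element core at position -79 from the start site, in lower case, and its RefSeq start lies before the GENCODE gene. The E-box CACGTG, searched in the same way, was found for 3 of the 33, against 8.09% of all genes. The windows are chr8:94178839-94179118 for Mt1 and chr8:94172368-94172647 for Mt2, on the plus strand of GRCm38.p6.
Mt1: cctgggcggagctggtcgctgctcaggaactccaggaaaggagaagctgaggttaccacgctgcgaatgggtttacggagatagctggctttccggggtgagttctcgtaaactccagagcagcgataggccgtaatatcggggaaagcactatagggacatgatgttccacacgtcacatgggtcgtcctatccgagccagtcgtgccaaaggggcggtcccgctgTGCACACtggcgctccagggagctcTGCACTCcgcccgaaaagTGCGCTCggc
Mt2: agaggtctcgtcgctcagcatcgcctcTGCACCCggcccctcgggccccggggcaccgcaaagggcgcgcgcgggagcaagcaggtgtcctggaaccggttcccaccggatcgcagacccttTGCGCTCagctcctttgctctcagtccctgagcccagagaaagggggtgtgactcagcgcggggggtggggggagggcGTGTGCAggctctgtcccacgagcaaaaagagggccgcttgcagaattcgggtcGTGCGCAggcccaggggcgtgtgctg

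Other genes of the pathway were read from a list of 77, of which 74 were tested. An unadjusted p under 0.05 was found for 27, 17 lower (23.0%, against 9.79% of all genes) and 10 higher (13.5%, against 11.4%), and the median log2 fold change was -0.087. One passed the adjusted threshold. Slc39a14, a transporter that brings zinc, iron and manganese into hepatocytes, was at 135, 141, 117, 148 and 147 CPM in HFDfre 1 to 5 and at 253, 184, 214 and 176 CPM in HFDfri 1 to 4. It rose by 0.59 ± 0.12 on the log2 scale (edgeR adjusted p = 0.0452), no library of one group entered the range of the other, and 9 of 22 alternatives kept the call. The group for haem, iron and metals had 8 of 10 genes at an unadjusted p under 0.05 (21.2% of all genes), 5 higher (11.4% of all genes) and 3 lower (9.79% of all genes). Slc30a1, which exports zinc, was among the higher ones (0.35 ± 0.11, edgeR adjusted p = 0.119). The lower ones were the ferritin chains Fth1 (-0.59 ± 0.14, edgeR adjusted p = 0.0589) and Ftl1 (-0.45 ± 0.13, edgeR adjusted p = 0.101), which store iron, and the biliverdin reductase Blvrb (-0.46 ± 0.11, edgeR adjusted p = 0.0620).

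Partners of NRF2 had 4 of 10 genes at an unadjusted p under 0.05 (21.2% of all genes), 2 higher and 2 lower. Bach1, a repressor that competes with NRF2 for its sites, was at 25.6, 24.1, 24.9, 19.7 and 24.8 CPM in HFDfre 1 to 5 and at 33.2, 35.9, 30.5 and 26.7 CPM in HFDfri 1 to 4. Maff, a small MAF protein, was at 3.62, 3.30, 4.34, 4.14 and 3.99 CPM in HFDfre 1 to 5 and at 4.91, 6.19, 7.90 and 5.40 CPM in HFDfri 1 to 4. Both were higher in every HFDfri library than in any HFDfre library, with log2 fold changes of 0.41 ± 0.11 (edgeR adjusted p = 0.0867) and 0.65 ± 0.16 (edgeR adjusted p = 0.0701). The lower ones, named after their values were seen, were Mafg, also a small MAF protein (-0.32 ± 0.14, edgeR adjusted p = 0.231), and Gsk3b, a kinase that marks NRF2 for degradation (-0.22 ± 0.10, edgeR adjusted p = 0.231), the latter without overlap. Of the thiol enzymes, Msrb3 was higher (0.53 ± 0.14, edgeR adjusted p = 0.0840), and the methionine sulfoxide reductase Msra (-0.32 ± 0.095, edgeR adjusted p = 0.105) and the thioredoxin-like Txndc17 (-0.44 ± 0.12, edgeR adjusted p = 0.0840) were lower, all without overlap. The glutathione transferase Gstk1 (-0.36 ± 0.11, edgeR adjusted p = 0.105) and the aldehyde oxidase Aox1 (-0.54 ± 0.14, edgeR adjusted p = 0.0840) were lower with overlap. The 8 genes of NADPH supply, which feed both thioredoxin and glutathione reductases, had 1 higher and 1 lower at an unadjusted p under 0.05 (25.0%, near the 21.2% of all genes). The 15 tested genes of glutathione transport, turnover and transfer had 4 lower and 0 higher (26.7%, against 9.79% of all genes that were lower and 21.2% in either direction).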

How the data were processed

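Liver RNA-seq of 5 HFDfre and 4 HFDfri libraries was read from 1 table of the whole series, whose columns carry the codes of the sample titles. The authors deposited estimated counts per gene, whole numbers not scaled between libraries. The submitters' processing notes name HISAT2, StringTie and mm10, and the study's methods name HISAT2. Neither annotation nor strandedness of the counting is given in the sources used here, and the library kit is named as NEBNext in the labels and KAPA in the methods. Low values pile up at multiples of 4, with 3990 entries of 4 but 2172 entries of 3, so counting error is modelled only approximately. Of the gene identifiers, 96.3% were in GENCODE M21 (GRCm38, the same build as mm10), which gave coordinates, exon lengths and overlaps.

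Of 33211 genes, 19775 had a count and 14220 passed filterByExpr of edgeR. HFDfri was compared with HFDfre by the quasi-likelihood test of edgeR 4.0.16 (R 4.3.3) on the rounded counts, with TMM scaling, no covariate and Benjamini-Hochberg adjustment over all tested genes. The study used DESeq2, run here (1.42.0) as an alternative. The SE of a log2 fold change is its size over the root of the F statistic. CPM are counts scaled to a common total after TMM, and a prior count of 2 was added before taking log2 CPM. The labels do not say that each library is a separate animal, so p-values measure the spread between these libraries. Library measures were compared by two-sided exact permutation tests over 126 splits. Promoters came from RefSeq (GRCm38.p6). The fits were tested on simulated data.

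The 40 genes and all lists were chosen with earlier results of these data known. The value in every library is given for genes with an unadjusted p under 0.05 and for the gene with the highest level per kilobase of exon in each role group, and for Mt1, chosen after its values were seen. Of the other pathway genes, 12 were named by smallest p. Up to 3 genes were named whose pattern was most like that of Mt1, Txnip and Nqo1. Alternatives were DESeq2 with and without the filter, limma-voom (limma 3.58.1), DESeq2 size factors, library totals, no filter, at least 10 counts in every library, robust dispersion, a replicate block, the share of the ribosomal RNA-like locus as a covariate, libraries with a share under 3%, removal of mitochondrial genes and leaving out each library. A correction for GC content and exon length (splines with 5 degrees of freedom for each library) was added after seeing the data.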

Additional observations from a re-analysis of the deposited data

Results flagged for a closer look

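In 3 of 78 sets of libraries, made of 39 genes in each diet, 1 library lay far from the rest of its group, where chance gives about 1 in 20, or 3.9. The measure is the gap to the nearest other library over the range of the group, on log2 CPM. For Glrx it was 0.936, with HFDfre 4 at 5.84 and the other HFDfre libraries at 5.41 to 5.44. For Mt1 it was 0.735, with HFDfre 4 at 7.49 and the others at 5.51 to 6.04. For Prdx3 it was 0.931, with HFDfri 1 at 6.43 and the other HFDfri libraries at 6.31 to 6.32. Of the 3 sets, 2 had HFDfre 4 on top. Without HFDfre 4, Glrx had a log2 fold change of -0.20. The HFDfri sets of Mt1 and Mt2 did not pass this limit although HFDfri 1 was far above the rest on the linear scale.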

How the results depend on the processing

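Over the 22 alternatives, 805 of 857 values of single genes kept their direction and their side of an adjusted p of 0.05, and 24 came under it. The number of all genes past an adjusted p of 0.05, 150 in the analysis reported, was 1068 with DESeq2, 1042 with DESeq2 without a filter, 76 after scaling to library totals, 72 if no filter was used, 38 when the ribosomal locus share was a covariate, 2 within the libraries with a share under 3%, and 6 (without HFDfre 3 or HFDfre 5) to 1106 (without HFDfri 1) when a library was left out. The number of antioxidant genes past it was 9 with DESeq2 with or without a filter and 0 to 5 when a library was left out. Those with an unadjusted p under 0.05 were 9, all lower, within the libraries with a share under 3%. The other pathway genes at that threshold were 17 in those libraries and 17 with library totals, against 27. Of all genes, 4.87% were lower at that threshold in those libraries and 5.81% with library totals, against 9.79%. The causes of these shifts were not tested.

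With the replicate number as a replicate block, 0 genes in the table passed the adjusted threshold with edgeR. The antioxidant genes that were lower with an unadjusted p under 0.05 were 14 of 39, against 8.80% of all genes. The log2 fold changes of Mt1 and Prdx6 were -0.054 and 0.0042. The numbers do not pair the libraries, as deviations of same-numbered libraries correlated at 0.027, 0.081, -0.14 and 0.034.

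Of the tested genes, 12 turned in direction somewhere, none of them among the 15. With library totals the log2 fold changes were 0.0071 for Cat, 0.050 for Gsr, 0.0094 for Keap1 and 0.041 for Prdx6. With the GC and length correction they were 0.073 for Akr7a5, 0.10 for Gpx1, 0.021 for Gsr and 0.0052 for Keap1. With the ribosomal covariate they were 0.0055 for Gsr, -0.0094 for Prdx1 and -0.060 for Prdx3, and within the libraries under 3% they were 0.0030 for Gpx1 and -0.036 for Prdx3. Prdx3 was at -0.0050 without a filter and -0.0053 with at least 10 counts. Leaving out a library gave ranges of -0.032 to 0.046 for Ephx2, -0.10 to 0.23 for Gpx3, -0.025 to 0.011 for Gsr, -0.014 to 0.42 for Hmox1, -0.14 to 2.53 for Mt1, -0.045 to 0.060 for Prdx3 and -0.058 to 0.028 for Prdx6.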

Other observations

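Some genes outside the pathway followed single members across the libraries. Likeness was Pearson's r of log2 CPM, taken as deviations from the group means over 9 libraries, and is given as a description because the points share library depth and composition. Mt1 was followed most closely by Mrpl21, a mitochondrial ribosomal protein (r = 0.990), Mt2 (r = 0.987) and the acute phase gene Hp (haptoglobin, r = 0.983), of 7087 genes searched. HFDfri 1 was the highest library in all of them, with Hp at 7046 CPM against 2826 to 4765 CPM in the other HFDfri libraries. Txnip was followed by Epb4.1 (r = 0.956), a protein of the membrane skeleton, Acot4 (r = 0.948), a peroxisomal acyl-CoA thioesterase, and 1110059E24Rik (r = 0.941). Acot4 was at 20.6 to 32.6 CPM in HFDfre and 10.04 to 14.6 CPM in HFDfri, so its difference between the groups ran against that of Txnip. Nqo1 was followed by Fnip2 (r = 0.972), Copg2 (r = 0.934), a coatomer subunit, and C2cd2 (r = 0.924), of 7088 genes searched.

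The counts of Mt2 for each count of Mt1 ranged from 0.209 in HFDfri 3 to 0.644 in HFDfri 4, with HFDfri 1 at 0.626 and the HFDfre libraries at 0.281 to 0.470.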
